A study of Saccharomyces eubayanus and Saccharomyces cerevisiae x Saccharomyces eubayanus with 20 samples.

Results

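The glyoxylate cycle and gluconeogenesis let yeast build sugar phosphates from compounds with fewer carbon atoms than a sugar, such as acetate and ethanol. Their transcripts were examined in 9 genes, ICL1, MLS1, PCK1, FBP1, MDH2, CIT2, SFC1, IDP2 and ICL2, which were taken by name from every expression table of a study of maltose and maltotriose use in lager yeast relatives. The 9 genes were 9 of 5513 gene models in the Saccharomyces eubayanus strains. In the hybrid between S. cerevisiae and S. eubayanus each was present once per subgenome, which gave 18 of 11292 gene models, 9 of 5511 from S. eubayanus and 9 of 5781 from S. cerevisiae. All of them passed the filter on low values, a mean of 1 FPKM or more over the libraries of a fit. FPKM are fragments counted on a gene model, scaled by its length and by the reads of its library.

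In the S. cerevisiae glyoxylate cycle, isocitrate lyase and malate synthase bypass the steps of the citric acid cycle that release carbon dioxide, so that acetyl-CoA can be turned into succinate and malate. Malate dehydrogenase, phosphoenolpyruvate carboxykinase and fructose bisphosphatase then lead from malate back towards glucose phosphate. These enzymes are known in S. cerevisiae for being repressed at the level of transcription while glucose is plentiful and for being made after the glucose is used up.

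RNA sequencing was done on shake-flask cultures in synthetic medium with 20 g of sugar per liter, with 2 cultures in each of 10 groups, 20 libraries in all. IMX1939 and IMX1765 were grown on maltotriose, maltose and glucose, the hybrid HTS020 on the same 3 sugars, and CDFM21L.1 on glucose only. CDFM21L.1 is a wild S. eubayanus isolate from the Himalayas, labelled as not growing on maltose or maltotriose. In both IMX strains the MAL activator gene ScMAL13 of S. cerevisiae, driven by the PGK1 promoter, replaces SGA1, and IMX1939 also lacks the maltose transporter gene SeMALT1. HTS020 came from mating spores of CDFM21L.1 with the brewing strain S. cerevisiae CBC-1, and carries both genomes. Each engineered strain and the hybrid is 1 isolate, so that a difference between strains cannot be told apart from a difference between isolates. The labels give a cell density of 12.5 at 660 nm at sampling for all cultures, while the methods of the study give a higher density for maltotriose than for the other sugars.

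The whole-number reads behind the FPKM values could be recovered, and 19 libraries held between 16874233 and 27175322 reads on genes. The exception was the first maltotriose culture of IMX1765 with 318922 reads, in which a gene of 1 kilobase needs 3 reads, equal to 9.41 FPKM, to stand above the limit that a count of 0 allows. In both IMX strains ScMAL13 had 226 reads or more in every library, against 6 and 4 reads in CDFM21L.1, and SGA1 had 7 reads or fewer, against 36 and 48 reads in CDFM21L.1. SeMALT1 had between 1 and 46 reads in the IMX1939 libraries. On glucose these were 1 and 2 reads, against 12 and 37 in CDFM21L.1 and 47 and 36 in IMX1765. On maltose they were 35 and 36 reads, against 633 and 642 in IMX1765. On maltotriose they were 23 and 46 reads, against 859 in IMX1765 and 4 in its library of 318922 reads. The free-text description of the first maltose culture of HTS020 names the maltotriose medium and those of both maltotriose cultures name the maltose medium, whereas titles and the carbon source field give the opposite. The groups follow the titles and that field. Across all genes of the hybrid, log2 FPKM correlated at 0.977 between the libraries titled maltose and at 0.989 between those titled maltotriose, but at 0.797 at most between a library of one kind and a library of the other.

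In IMX1939, all 9 genes were lowest on glucose, higher on maltose and highest on maltotriose by mean FPKM. By limma, 39.8% of all genes were called there between maltotriose and glucose, 16.2% between maltose and glucose and 1.48% between maltotriose and maltose. Together they took 1.44% and 1.19% of all reads on maltotriose, 0.145% and 0.178% on maltose and 0.0275% and 0.0317% on glucose. In IMX1765 the 9 genes took 0.0652% and 0.482% on maltotriose, where the lower value is the library with few reads, 0.0969% and 0.0981% on maltose and 0.0365% and 0.0197% on glucose. CDFM21L.1 on glucose lay within the range of the other glucose cultures, with 0.0292% and 0.0199%. CIT2 held most of the members' reads in every glucose library, 4808 of 5760 and 4258 of 5404 in CDFM21L.1. The glucose totals therefore say little of the other members. The plot of levels in the S. eubayanus strains shows each library.

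**Figure D1:**
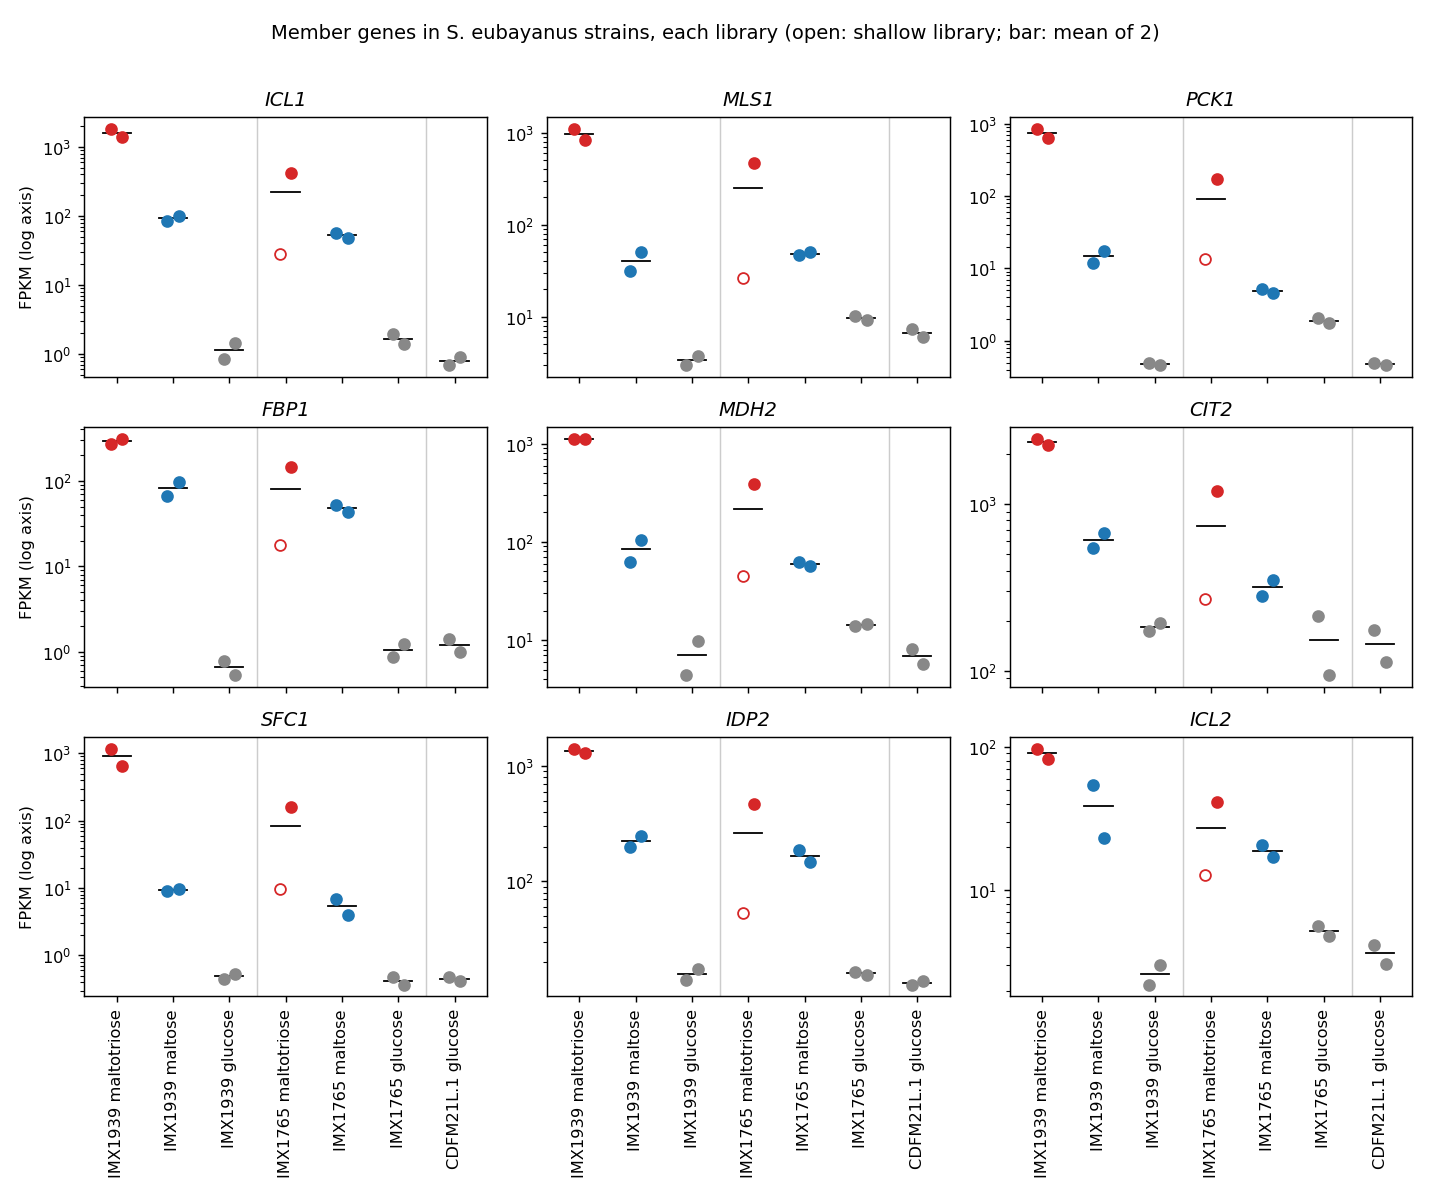
FPKM of the 9 genes (log axis) in the 14 S. eubayanus libraries, with a point for each culture, an open point for the library of 318922 reads and a bar for the mean of the 2 cultures. In IMX1939 the maltotriose cultures lie above the maltose cultures and these above the glucose cultures for all 9 genes, while the open points of IMX1765 lie below the maltose cultures for 7 genes.

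ICL1 codes for isocitrate lyase, which splits isocitrate into succinate and glyoxylate, and lies on chromosome 5 from 291327 to 292997 (minus strand) of the CDFM21L.1 assembly, to which all positions of S. eubayanus genes refer. The models hold coding sequence, with lengths that are multiples of 3. ICL1 had 1834 and 1396 FPKM in IMX1939 on maltotriose, 83.9 and 101 FPKM on maltose and 0.846 and 1.44 FPKM on glucose. In IMX1765 its level was 28.1 and 415 FPKM on maltotriose, 56.4 and 48.1 FPKM on maltose and 1.93 and 1.38 FPKM on glucose, and in CDFM21L.1 on glucose it was 0.698 and 0.903 FPKM. The order of sugars was maltotriose, maltose, glucose in IMX1939, with ICL1 1412 ± 586 times as high on maltotriose as on glucose (ratio of mean FPKM with its propagated SD, n = 2 each). MLS1, the malate synthase that joins glyoxylate to acetyl-CoA, lies on chromosome 14 from 404726 to 406390 (plus strand). The MLS1 level was 1107 and 839 FPKM in IMX1939 on maltotriose, against 31.1 and 50.2 FPKM on maltose and 3.00 and 3.72 FPKM on glucose. IMX1765 had 26.4 and 472 FPKM of MLS1 on maltotriose, 46.7 and 49.9 FPKM on maltose and 10.2 and 9.18 FPKM on glucose, and CDFM21L.1 had 7.34 and 5.99 FPKM on glucose. On glucose MLS1 had a higher level per length than ICL1 in all 6 libraries, and it rose 289 ± 71.3-fold on maltotriose in IMX1939.

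CIT2, the citrate synthase that supplies the cycle outside mitochondria, lies on chromosome 3 from 113323 to 114705 (minus strand). CIT2 had 2479 and 2276 FPKM in IMX1939 on maltotriose, 546 and 669 FPKM on maltose and 174 and 194 FPKM on glucose. In IMX1765 its level was 269.8 and 1206 FPKM on maltotriose, 282 and 352 FPKM on maltose and 213 and 94.6 FPKM on glucose, and in CDFM21L.1 on glucose it was 176 and 113 FPKM. CIT2 was the member with the highest level per length on every sugar in these strains and the one with the smallest change, 12.9 ± 1.27-fold between maltotriose and glucose in IMX1939. On glucose its cultures differed widely within IMX1765, and the 3 strains overlapped there. MDH2, the cytosolic malate dehydrogenase shared by the cycle and gluconeogenesis, lies on chromosome 15 from 65022 to 66149 (minus strand). The MDH2 level was 1126 and 1119 FPKM in IMX1939 on maltotriose, against 61.7 and 106 FPKM on maltose and 4.43 and 9.72 FPKM on glucose. IMX1765 had 44.5 and 389.6 FPKM of MDH2 on maltotriose, 61.8 and 56.7 FPKM on maltose and 14.01 and 14.7 FPKM on glucose, and CDFM21L.1 had 8.18 and 5.68 FPKM on glucose. Both maltotriose cultures of IMX1939 stood far above its maltose cultures for MDH2, and the fold against glucose was 159 ± 83.7.

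PCK1 codes for phosphoenolpyruvate carboxykinase, which commits oxaloacetate to gluconeogenesis, and lies on chromosome 11 from 627412 to 629058 (plus strand). PCK1 had 853 and 642 FPKM in IMX1939 on maltotriose, 12.04 and 17.4 FPKM on maltose and 0.495 and 0.467 FPKM on glucose. In IMX1765 its level was 13.3 and 171 FPKM on maltotriose, 5.18 and 4.64 FPKM on maltose and 2.05 and 1.76 FPKM on glucose, and in CDFM21L.1 on glucose it was 0.492 and 0.469 FPKM. PCK1 was low on maltose beside its maltotriose level and was the member, after SFC1, with the largest fold of maltotriose over glucose in IMX1939, 1554 ± 317. FBP1, the fructose bisphosphatase that undoes a step of glycolysis, lies on chromosome 12 from 887093 to 888139 (minus strand). The FBP1 level was 272 and 312 FPKM in IMX1939 on maltotriose, against 67.2 and 97.01 FPKM on maltose and 0.779 and 0.538 FPKM on glucose. IMX1765 had 17.97 and 144 FPKM of FBP1 on maltotriose, 51.8 and 43.2 FPKM on maltose and 0.87 and 1.25 FPKM on glucose, and CDFM21L.1 had 1.40 and 0.984 FPKM on glucose. FBP1 made most of its rise on the log2 scale already on maltose, where it was 125 ± 45.4 times the glucose level in IMX1939, with a further 3.56 ± 0.975-fold between maltotriose and maltose.

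SFC1, the mitochondrial carrier that exchanges cytosolic succinate for fumarate, lies on chromosome 10 from 580951 to 581919 (plus strand). SFC1 had 1176 and 639.8 FPKM in IMX1939 on maltotriose, 9.05 and 9.80 FPKM on maltose and 0.449 and 0.529 FPKM on glucose. In IMX1765 its level was 9.71 and 159 FPKM on maltotriose, 6.80 and 3.95 FPKM on maltose and 0.47 and 0.367 FPKM on glucose, and in CDFM21L.1 on glucose it was 0.471 and 0.418 FPKM. SFC1 was nearly silent on glucose, with between 6 and 11 reads in the 6 glucose libraries of the 3 strains, so that its fold of 1857 ± 805 in IMX1939 rests on few reads in the denominator. IDP2, the cytosolic isocitrate dehydrogenase that yields NADPH, lies on chromosome 12 from 519148 to 520386 (plus strand). The IDP2 level was 1413 and 1297 FPKM in IMX1939 on maltotriose, against 198 and 247 FPKM on maltose and 14.04 and 17.5 FPKM on glucose. IMX1765 had 53.1 and 469 FPKM of IDP2 on maltotriose, 188 and 146 FPKM on maltose and 16.4 and 15.4 FPKM on glucose, and CDFM21L.1 had 12.7 and 13.6 FPKM on glucose. The cultures of a group lay close together for IDP2 except on maltotriose in IMX1765. ICL2, known in S. cerevisiae as a mitochondrial lyase of the methylcitrate route of propionate breakdown, lies on chromosome 16 from 545677 to 547383 (minus strand). ICL2 had 96.99 and 82.5 FPKM in IMX1939 on maltotriose, 54.4 and 23.1 FPKM on maltose and 2.20 and 3.03 FPKM on glucose. In IMX1765 its level was 12.9 and 41.4 FPKM on maltotriose, 20.6 and 17.2 FPKM on maltose and 5.60 and 4.79 FPKM on glucose, and in CDFM21L.1 on glucose it was 4.19 and 3.08 FPKM. ICL2 reached the lowest level of the 9 on maltotriose in IMX1939, and its maltose cultures there differed by more than its maltotriose cultures.

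Tests were made with limma, taking log2(FPKM + 1) in 1 fit over the 14 libraries, and a gene was called at a Benjamini-Hochberg adjusted p under 0.05 over the 5404 genes tested. All cultures of a fit share 1 estimate of the spread per gene, and the library of 318922 reads widened it. Each count of members is therefore given also for a fit over the 13 other libraries and 5406 genes, chosen after seeing the data, in which the lone maltotriose culture of IMX1765 is assumed to vary like the other groups.

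On maltotriose against glucose, IMX1939 raised 9 of 9 genes, where 39.8% of all genes were called in either direction, and likewise 9 of 9 with 13 libraries (52.3% of all genes). The median log2 change was 7.47 for the 9 genes and 0.05 for all genes. The changes ran from 3.68 ± 0.59 for CIT2 (limma, Benjamini-Hochberg adjusted p = 0.00175) to 9.56 ± 0.89 for ICL1 (adjusted p = 0.000157). The pseudocount shrinks SFC1 and PCK1 most, the members lowest on glucose. By mean FPKM their folds, 1857 ± 805 and 1554 ± 317, were above the 1412 ± 586 of ICL1. Ranked from the largest rise down among the 5404 genes, ICL1 was at place 5, SFC1 at 7, PCK1 at 8, MLS1 at 12 and FBP1 at 15, while CIT2 was at 109.

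On maltose against glucose, 7 of 9 genes rose in IMX1939 (16.2% of all genes called) and 9 of 9 with 13 libraries (26.1%). The glucose cultures are the same as for the comparison of maltotriose with glucose. FBP1 changed most, by 5.63 ± 0.70 on the log2 scale (limma, adjusted p = 0.000571), followed by ICL1 with 5.45 ± 0.89 (adjusted p = 0.00254). The 2 genes that missed the threshold with 14 libraries were CIT2, at 1.71 ± 0.59 (adjusted p = 0.0856), and SFC1, at 2.81 ± 0.93 (adjusted p = 0.0725). Fewer members were called when the second maltose culture or the first glucose culture was left out. The share of all genes called was not counted for those fits. The median was 3.39 for the members and 0.10 for all genes, and rescaling the libraries to a common median ratio moved that of all genes by -0.11.

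In IMX1939 the mean FPKM on maltotriose exceeded that on maltose for every member. Past the threshold 3 of 9 rose (1.48% of all genes called), against 9 of 9 with 13 libraries (13.5%). Those called with all libraries were PCK1 at 5.58 ± 0.84 (limma, adjusted p = 0.0193), SFC1 at 6.38 ± 0.93 (adjusted p = 0.0193) and MDH2 at 3.78 ± 0.77 (adjusted p = 0.047). SFC1 and PCK1 held places 1 and 2 of all 5404 genes by the size of this rise. FBP1 and ICL2 changed least, by 1.84 ± 0.70 and 1.31 ± 0.49, and had adjusted p = 0.00164 and 0.0392 with 13 libraries. All member calls were lost when the second maltotriose culture or either maltose culture was left out, and fewer remained without the first maltotriose culture. The share of all genes called was not counted for those fits.

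In IMX1765, all 9 genes were higher on maltose than on glucose by mean FPKM, and 3 of 9 were called (9.34% of all genes). These were ICL1 at 4.33 ± 0.89 (limma, adjusted p = 0.0149), FBP1 at 4.56 ± 0.70 (adjusted p = 0.00408) and IDP2 at 3.30 ± 0.73 (adjusted p = 0.0194). With 13 libraries 8 of 9 rose (17.9%), and CIT2 remained out at adjusted p = 0.0502. Fewer members were called whichever of the 4 cultures compared was left out, and the share of all genes called was not counted for those fits. PCK1 and CIT2 had the smallest changes on this scale, 1.03 ± 0.84 and 1.14 ± 0.59. The pseudocount shrinks that of PCK1, and by mean FPKM the folds were 2.58 ± 0.336 for PCK1 and 2.06 ± 1.17 for CIT2.

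The 2 maltotriose cultures of IMX1765 differed from each other by more than counting allows. For ICL1 the library of 318922 reads held 15 reads, which gives 28.1 FPKM with an exact Poisson 95% interval from 15.8 to 46.4, while the second culture had 415 FPKM. The interval of the first culture, which covers counting error only, lay below that of the second for all 9 genes, and came nearest for ICL2, with an upper bound of 26.5 FPKM against a lower bound of 39.2 FPKM. Over genes with a mean of 1 FPKM or more, log2(FPKM + 1) of that library correlated at 0.898 with the second maltotriose library. It correlated at 0.942 and 0.941 with the maltose libraries of IMX1765, and at 0.9355 and 0.9374 with its glucose libraries. The depth of that library moves with the level of every member. The parts of depth and of a difference between the cultures were not tested.

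On maltotriose against glucose, 7 of 9 genes rose in IMX1765 (6.18% of all genes called), and MLS1 and CIT2 missed the threshold with adjusted p = 0.0665 and 0.0781 (limma). All member calls were lost when either glucose culture of IMX1765 was left out, where the share of all genes called was not counted. Without the library of 318922 reads, 9 of 9 rose (28.7%) and the median change of the members was 5.47 in place of 3.42, while the median of all genes was -0.04. On maltotriose against maltose, 0 of 9 genes were called by limma (0% of all genes), and voom on the recovered reads also called 0. Unadjusted p was under 0.05 for 2 members and for 411 of all 5404 genes. Keeping only the second culture, 7 of 9 rose (0.536%), with PCK1 at 4.86 ± 0.24 (adjusted p = 4.99e-05) and SFC1 at 4.69 ± 0.35 (adjusted p = 0.000658). Keeping only the library with few reads also gave calls among the members, and the share of all genes called was not counted there.

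IMX1939 and IMX1765 differ by the deletion of SeMALT1. On maltotriose every member had a higher mean FPKM in IMX1939 than in IMX1765, and the median log2 difference was 3.08, or 1.52 with 13 libraries. With 14 libraries limma called 0 of 9 (0% of all genes), and voom called 0. Unadjusted p was under 0.05 for all 9 members, and for 1359 of all 5404 genes. With 13 libraries 4 of 9 were higher in IMX1939 (0.185%), which were SFC1 at 2.44 ± 0.35 (limma, adjusted p = 0.038), PCK1 at 2.11 ± 0.24 (adjusted p = 0.0119), ICL1 at 1.94 ± 0.25 (adjusted p = 0.0229) and IDP2 at 1.53 ± 0.20 (adjusted p = 0.024). These 4 calls compare a pair of cultures with 1 culture. More members were called when the library with few reads was kept in place of the other, where the share of all genes called was not counted.

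On maltose the strains lay closer, and rescaling the libraries moved the median difference of all genes by -0.12. Limma called 0 of 9 with 14 libraries (0% of all genes), 0 had an unadjusted p under 0.05 and voom called 0. With 13 libraries again 0 of 9 were called (0.037%), while 7 members and 906 of all 5406 genes had an unadjusted p under 0.05. PCK1 came nearest, with 12.04 and 17.4 FPKM in IMX1939 and 5.18 and 4.64 FPKM in IMX1765, a log2 difference of 1.39 ± 0.20 (limma with 13 libraries, adjusted p = 0.0544). On glucose 0 of 9 were called (1.3% of all genes), 0 had an unadjusted p under 0.05, and voom called 0. With 13 libraries 2 of 9 were lower in IMX1939 (5.7%), MLS1 with -1.29 ± 0.23 (adjusted p = 0.0138) and PCK1 with -0.97 ± 0.20 (adjusted p = 0.0247).

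The response to a sugar was compared between the 2 strains as an interaction. For maltotriose against glucose, the response of IMX1939 exceeded that of IMX1765 by a median of 4.08 on the log2 scale, or 2.26 with 13 libraries. With 14 libraries limma called 0 of 9 (0.0185% of all genes), and voom called 0. Unadjusted p was under 0.05 for 8 members and for 728 of all 5404 genes. With 13 libraries 4 of 9 were called (0.703%), PCK1 with the largest difference of 3.08 ± 0.31 (adjusted p = 0.00438), and ICL1, MLS1 and IDP2 with 2.26, 2.32 and 1.55. For maltose against glucose 0 of 9 were called (0% of all genes), voom called 0, and rescaling moved the median of all genes by -0.13. Unadjusted p was under 0.05 for 1 member and for 263 of all 5404 genes. With 13 libraries PCK1 alone of the 9 was called (0.37%), its response in IMX1939 exceeding that in IMX1765 by 2.36 ± 0.28 (adjusted p = 0.00761).

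Against CDFM21L.1, the strain without ScMAL13, on glucose, no member was called in IMX1765 (0 of 9, 0.037% of all genes) or in IMX1939 (0 of 9, 0.222%), and 0 of 9 had an unadjusted p under 0.05 in either comparison with 14 libraries, where voom called 0 as well. With 13 libraries again 0 of 9 were called in IMX1765 (0.444%) and in IMX1939 (2.65%). Unadjusted p was under 0.05 for 3 members in IMX1765 and 1 in IMX1939, and for 606 and 912 of all 5406 genes. PCK1 was 3.96 ± 0.437 times as high in IMX1765 as in CDFM21L.1 by mean FPKM, ICL1 2.07 ± 0.616 times and MDH2 2.07 ± 0.534 times. These differences were not called (limma with 13 libraries, adjusted p = 0.0881, 0.356 and 0.308 in that order). In IMX1939 MLS1 was 0.505 ± 0.105 times its CDFM21L.1 level (limma with 13 libraries, adjusted p = 0.111). With only the compared groups in the fit, 4 of 9 were called in IMX1765 and 0 in IMX1939. The share of all genes called in those fits was not counted, so these counts cannot be set against it. On log2(FPKM + 1), the differences lay between -0.09 and 0.97 for IMX1765 and between -0.81 and 0.38 for IMX1939. For ICL1, PCK1, FBP1 and SFC1, whose glucose levels were at or below 2.05 FPKM in all 3 strains, the added pseudocount of 1 shrinks such differences.

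**Figure D2:**
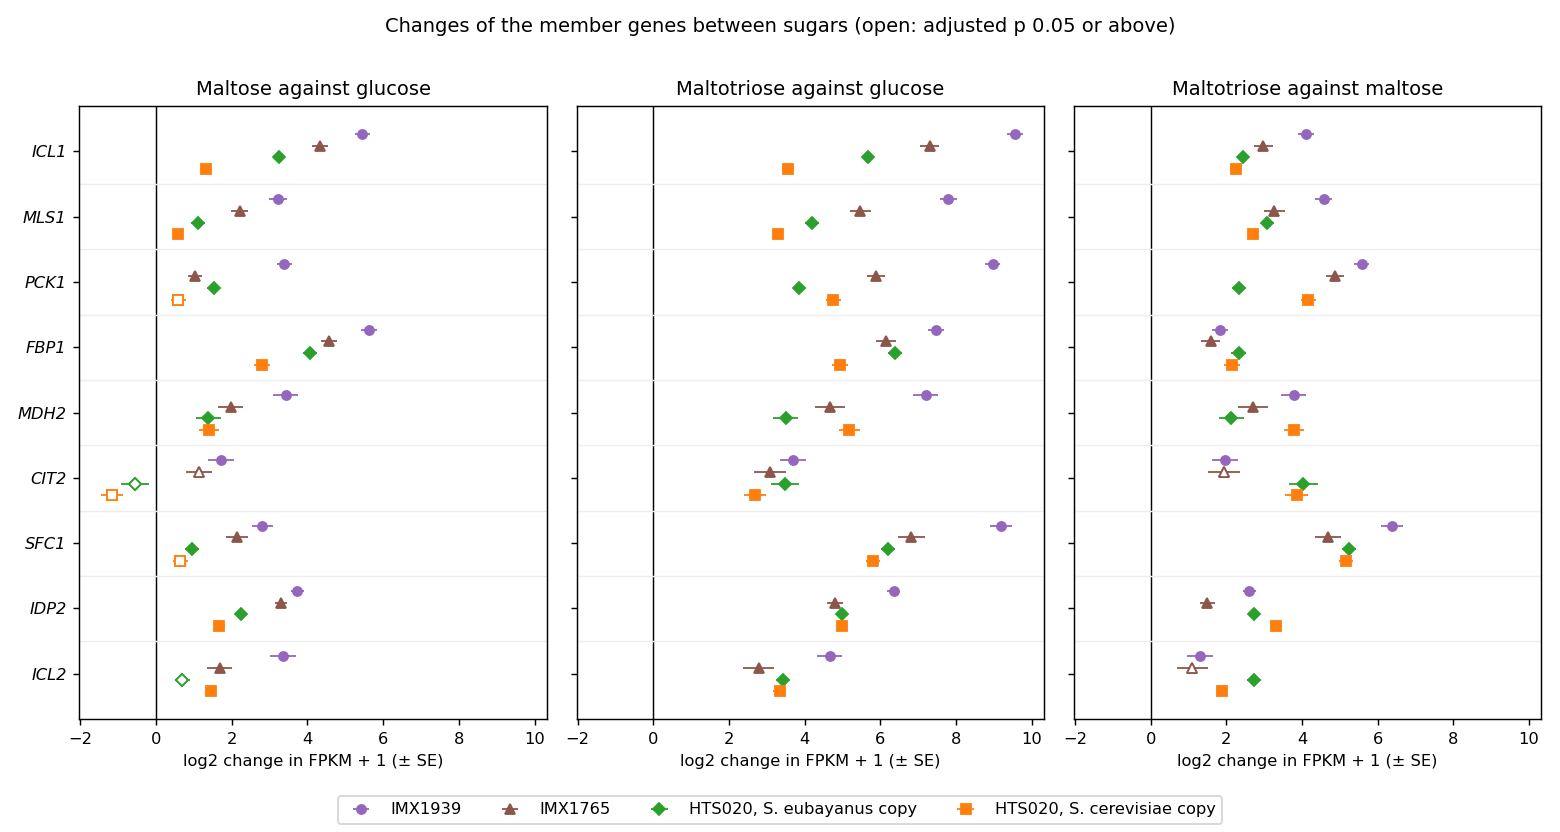
Log2 change in FPKM + 1 with its standard error (x axis) of each of the 9 genes between sugars, in IMX1939 and IMX1765 (fit over 13 libraries) and for both copies in HTS020, with open symbols where the adjusted p was 0.05 or above. All symbols lie right of 0 except CIT2 in HTS020 on maltose against glucose, and the IMX1939 symbols lie farthest right in the panel of maltotriose against glucose for all 9 genes.

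In the hybrid HTS020, both copies of every member were far higher on maltotriose than on the other sugars. The S. eubayanus copies took 0.225% and 0.211% of all reads on maltotriose, 0.0261% and 0.025% on maltose and 0.0151% and 0.0107% on glucose. The S. cerevisiae copies took 0.233% and 0.215% on maltotriose, 0.025% and 0.0224% on maltose and 0.0199% and 0.0158% on glucose. On maltotriose and maltose the totals of the 2 species lay close together, and on glucose that of S. cerevisiae was higher in both libraries. CIT2 held most reads of each glucose total, 1956 of 2715 and 1054 of 1887 for S. eubayanus and 2291 of 3581 and 1568 of 2796 for S. cerevisiae. The plot of levels in HTS020 shows the libraries of both copies.

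**Figure D3:**
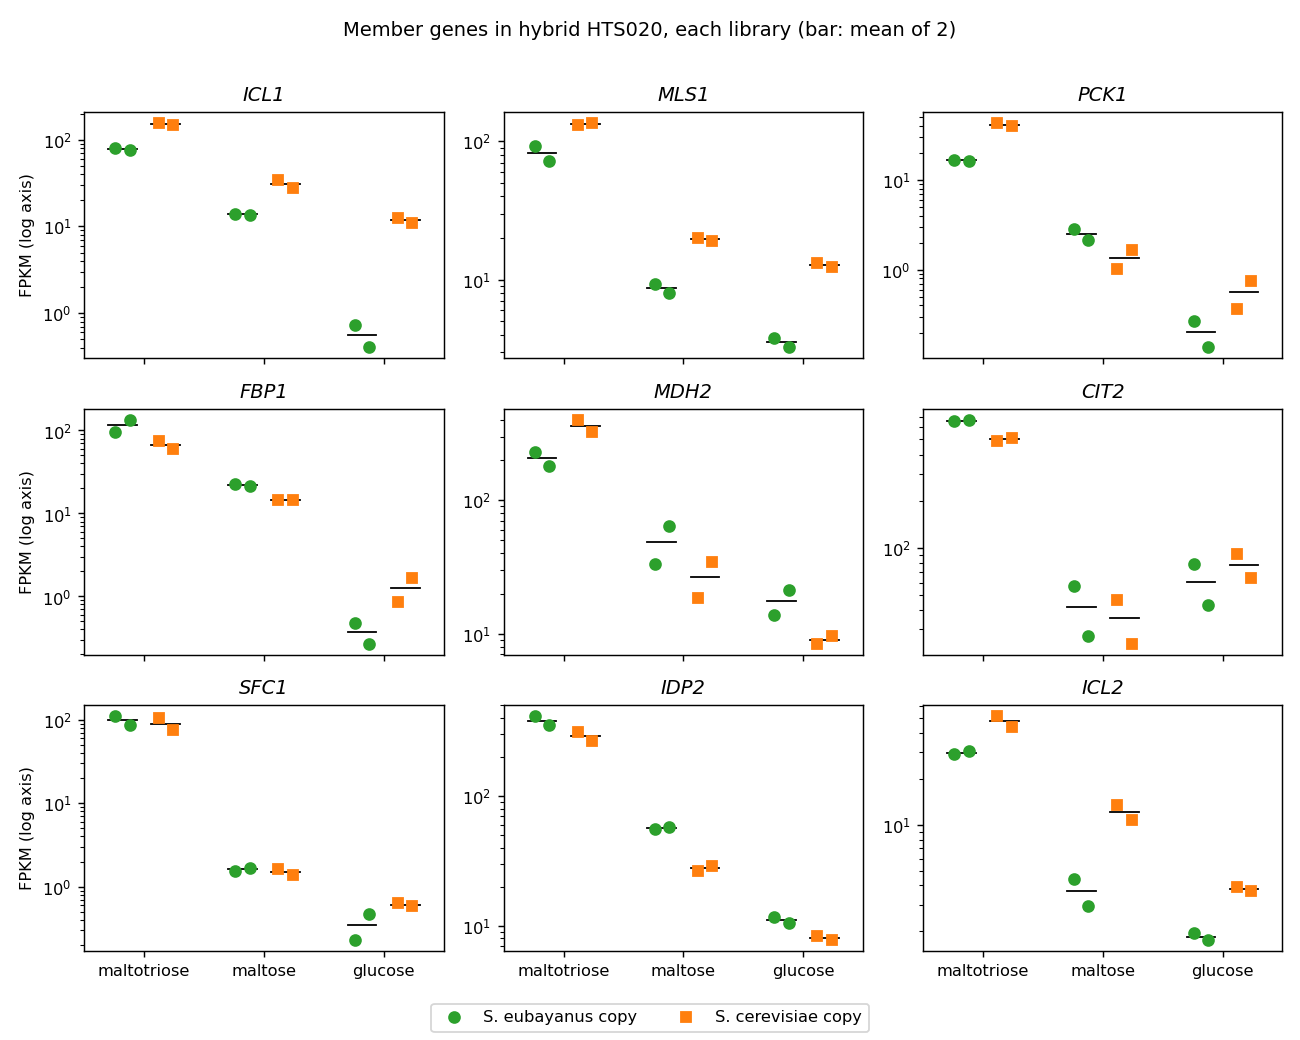
FPKM of the 9 genes (log axis) in the 6 libraries of HTS020, with circles for the S. eubayanus copy, squares for the S. cerevisiae copy, a point for each culture and a bar for the mean of 2. Every maltotriose point lies above all maltose and glucose points of the same copy, and for CIT2 the maltose points overlap the glucose points of the S. eubayanus copy and lie below those of the S. cerevisiae copy.

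Of the glyoxylate cycle genes, ICL1 showed the widest gap between copies on glucose. The S. eubayanus copy of ICL1 had 80.9 and 76.5 FPKM on maltotriose, 13.9 and 13.7 FPKM on maltose and 0.73 and 0.406 FPKM on glucose, and the S. cerevisiae copy had 154 and 146, 34.2 and 27.4 and 12.5 and 11.1 FPKM on the same sugars. Its S. cerevisiae copy, on chromosome 5 from 286486 to 288159 (minus strand) of the CBC-1 assembly, thus kept a level on glucose that the S. eubayanus copy reached only on maltose. MLS1 from S. eubayanus was at 92.4 and 71.7 FPKM on maltotriose, 9.37 and 8.09 FPKM on maltose and 3.80 and 3.26 FPKM on glucose, and MLS1 from S. cerevisiae at 131 and 134, 20.1 and 19.1 and 13.2 and 12.3 FPKM on the same sugars. The S. cerevisiae MLS1, on chromosome 14 from 400078 to 401742 (plus strand), was the higher copy in all 6 libraries. For CIT2, the levels of the S. eubayanus copy were 654 and 669 FPKM on maltotriose, 56.7 and 27.2 FPKM on maltose and 78.5 and 43.1 FPKM on glucose, and those of the S. cerevisiae copy 487 and 513, 46.3 and 24.2 and 91.9 and 64.1 FPKM on the same sugars. Maltose cultures overlapped glucose cultures for the S. eubayanus CIT2 and lay below them for the S. cerevisiae CIT2, which is on chromosome 3 from 126686 to 128068 (plus strand).

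The higher copy was not the same on all sugars for MDH2, PCK1 and FBP1, as it was not for CIT2. The S. eubayanus copy of MDH2 had 232 and 179.9 FPKM on maltotriose, 33.01 and 64.00 FPKM on maltose and 13.8 and 21.2 FPKM on glucose, and the S. cerevisiae copy had 401 and 324, 18.6 and 34.2 and 8.41 and 9.57 FPKM on the same sugars. The S. cerevisiae MDH2, on chromosome 15 from 71524 to 72657 (minus strand), was the lower copy in every maltose and glucose library and the higher one in both maltotriose libraries. PCK1 from S. eubayanus was at 16.4 and 16.4 FPKM on maltotriose, 2.83 and 2.12 FPKM on maltose and 0.269 and 0.137 FPKM on glucose, and PCK1 from S. cerevisiae at 42.4 and 39.4, 1.03 and 1.67 and 0.37 and 0.754 FPKM on the same sugars. PCK1, with its S. cerevisiae copy on chromosome 11 from 643120 to 644769 (plus strand), had 22 reads or fewer per copy in each glucose library. For FBP1, the levels of the S. eubayanus copy were 95.6 and 134 FPKM on maltotriose, 22.6 and 21.2 FPKM on maltose and 0.477 and 0.27 FPKM on glucose, and those of the S. cerevisiae copy 75.5 and 59.8, 14.3 and 14.5 and 0.848 and 1.67 FPKM on the same sugars. The S. cerevisiae FBP1, on chromosome 12 from 919314 to 920360 (minus strand), was above its partner in both glucose libraries and below it in the other 4.

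The S. eubayanus copy of SFC1 had 109.9 and 87.6 FPKM on maltotriose, 1.53 and 1.69 FPKM on maltose and 0.229 and 0.467 FPKM on glucose, and the S. cerevisiae copy had 105 and 75.1, 1.64 and 1.38 and 0.63 and 0.583 FPKM on the same sugars. SFC1, with its S. cerevisiae copy on chromosome 10 from 598456 to 599424 (plus strand), was near 0 in both copies on glucose and made nearly all of its rise on maltotriose. IDP2 from S. eubayanus was at 410.2 and 349.9 FPKM on maltotriose, 55.6 and 57.95 FPKM on maltose and 11.7 and 10.5 FPKM on glucose, and IDP2 from S. cerevisiae at 309.5 and 266, 26.5 and 29.1 and 8.28 and 7.75 FPKM on the same sugars. IDP2 was higher from S. eubayanus in all 6 libraries, and its S. cerevisiae copy lies on chromosome 12 from 539992 to 541230 (plus strand). For ICL2, the levels of the S. eubayanus copy were 28.9 and 30.5 FPKM on maltotriose, 4.43 and 2.93 FPKM on maltose and 1.95 and 1.75 FPKM on glucose, and those of the S. cerevisiae copy 51.3 and 43.9, 13.5 and 10.8 and 3.92 and 3.70 FPKM on the same sugars. The S. cerevisiae ICL2, on chromosome 16 from 558751 to 560478 (minus strand), was the higher copy in all 6 libraries.

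On maltotriose against glucose, limma over the 6 hybrid libraries called 9 of 9 S. eubayanus copies and 9 of 9 S. cerevisiae copies as higher, where 72.4% and 69.7% of all genes of those subgenomes were called in either direction, so that being called was common here and the size of the rise tells more. The median log2 change was 4.19 for the S. eubayanus copies and 4.76 for the S. cerevisiae copies, against -0.16 and -0.12 for all genes. SFC1 rose most among the S. cerevisiae copies, by 5.80 ± 0.20 (adjusted p = 1.72e-06), and FBP1 among the S. eubayanus copies, by 6.38 ± 0.19 (adjusted p = 1.14e-06). CIT2 rose least among the S. cerevisiae copies, by 2.69 ± 0.30, while ICL2 and CIT2 from S. eubayanus had nearly equal changes of 3.43 ± 0.19 and 3.48 ± 0.37. By mean FPKM, without the pseudocount, the S. eubayanus copies rose 16.03 ± 1.33-fold for ICL2, 10.9 ± 4.49-fold for CIT2 and 11.7 ± 4.10-fold for MDH2. Rescaling the libraries moved the median of all genes by 0.14, far less than any member changed.

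On maltotriose against maltose, again 9 of 9 S. eubayanus copies (66.4% of those genes called) and 9 of 9 S. cerevisiae copies (63.2%) rose. The medians were 2.72 and 3.32 for the members against -0.18 and -0.11 for all genes, which rescaling moved by 0.13. SFC1 rose most in both subgenomes, by 5.25 ± 0.18 from S. eubayanus (limma, adjusted p = 2.89e-06) and by 5.16 ± 0.20 from S. cerevisiae (adjusted p = 3.95e-06).

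On maltose against glucose, 7 of 9 S. eubayanus copies (11.8% of those genes called) and 6 of 9 S. cerevisiae copies (11.1%) rose, and no member fell past the threshold. FBP1 led in both, at 4.06 ± 0.19 for the S. eubayanus copy (limma, adjusted p = 4.40e-05) and 2.79 ± 0.21 for the S. cerevisiae copy (adjusted p = 0.000493). Of the S. eubayanus copies, CIT2 at -0.55 ± 0.37 (adjusted p = 0.351) and ICL2 at 0.70 ± 0.19 (adjusted p = 0.0612) were not called. Of the S. cerevisiae copies, CIT2 at -1.17 ± 0.30 (adjusted p = 0.0513), PCK1 at 0.59 ± 0.21 (adjusted p = 0.108) and SFC1 at 0.64 ± 0.20 (adjusted p = 0.0794) were not called. Leaving out either glucose culture lowered the number of S. eubayanus copies called. Leaving out the first maltose culture, whose description names another medium, raised the number called in each subgenome. The share of all genes called was not counted for these fits. CIT2 was the one member with a negative change on maltose in both copies, whereas in IMX1939 and IMX1765 its maltose cultures lay above its glucose cultures. The hybrid was fitted separately, and this difference between strains was not tested.

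The 2 copies of a gene are measured in the same library, so their ratio was taken within each library, as log2(FPKM + 1) of the S. eubayanus copy minus that of the S. cerevisiae copy, and tested with limma over 4610 gene pairs. On maltotriose 8 of 9 pairs differed (73.8% of all pairs called), 3 with the S. eubayanus copy higher (FBP1, CIT2 and IDP2) and 5 with the S. cerevisiae copy higher (ICL1, MLS1, PCK1, MDH2 and ICL2). On maltose 6 of 9 differed (58.7%), with the S. eubayanus copy higher for PCK1, MDH2 and IDP2 and the S. cerevisiae copy for ICL1, MLS1 and ICL2. On glucose 7 of 9 differed (59%), with the S. eubayanus copy higher for MDH2 and IDP2 and the S. cerevisiae copy for ICL1, MLS1, FBP1, CIT2 and ICL2. Unequal copies were thus common among all pairs too.

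The ratio itself moved with the sugar. Between maltotriose and glucose it changed for 6 of 9 genes (58.3% of all pairs called), a share near that of all pairs. For ICL1 the ratio was -0.92 and -0.93 on maltotriose and -2.97 and -3.10 on glucose, a change of 2.11 ± 0.15 (limma, adjusted p = 8.88e-05). It was -0.79 and -0.85 on maltotriose and 0.65 and 1.07 on glucose for MDH2, a change of -1.68 ± 0.15 (adjusted p = 0.000217). Thus the ratios of these 2 genes moved in opposite directions, and that of MDH2 crossed 0, as did those of FBP1 and CIT2. FBP1, MLS1 and CIT2 shifted towards the S. eubayanus copy by 1.44, 0.90 and 0.80, and PCK1 towards the S. cerevisiae copy, with -0.90. On glucose both PCK1 copies lay at or under 0.754 FPKM, where the pseudocount of 1 pulls the ratio towards 0. Without it, the S. eubayanus PCK1 was 0.729 and 0.182 times its partner on glucose. On maltotriose it was 0.387 and 0.416 times its partner, which lies between the glucose values.

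Between maltose and glucose the ratio changed for 3 of 9 genes (2.49% of all pairs called). ICL1 shifted by 1.94 ± 0.15 (limma, adjusted p = 0.00291) and IDP2 by 0.58 ± 0.10 (adjusted p = 0.0399) towards the S. eubayanus copy, and ICL2 by -0.75 ± 0.14 (adjusted p = 0.0477) towards the S. cerevisiae copy. Fewer members were called with a pseudocount of 0.1, and whichever of the 4 cultures compared was left out. The share of all pairs called was not counted for those fits. PCK1, whose copies both lay at or under 0.754 FPKM on glucose, had ratios of 0.92 and 0.22 on maltose and -0.11 and -0.62 on glucose (adjusted p = 0.128).

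**Figure D4:**
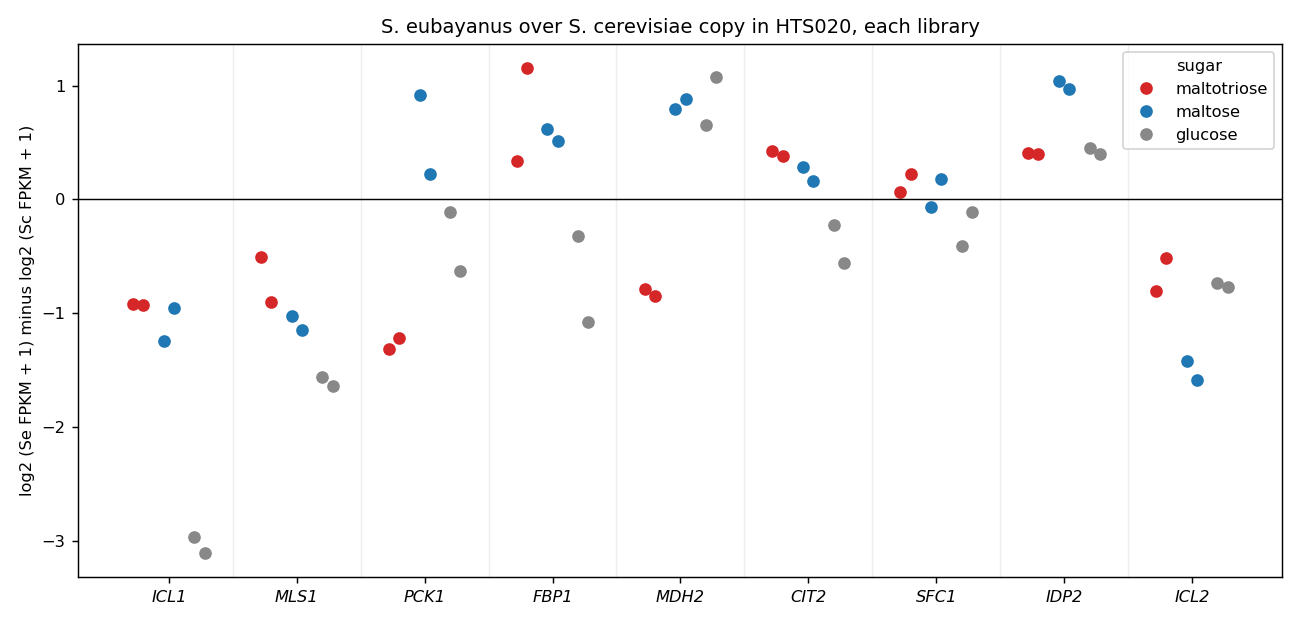
Difference of log2(FPKM + 1) between the S. eubayanus and the S. cerevisiae copy (y axis) of each of the 9 genes in the 6 libraries of HTS020, with a point for each culture coloured by sugar and a line at 0, where the copies are equal. ICL1 is lowest on glucose at -2.97 and -3.10, and MDH2 lies above 0 on maltose and glucose and below 0 on maltotriose.

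Set side by side, the S. eubayanus copies on maltotriose were lower in HTS020 than in IMX1939 for all 9 genes. ICL1 averaged 78.7 ± 3.11 FPKM in HTS020 and 1615 ± 309.5 FPKM in IMX1939, PCK1 16.4 ± 0.0235 and 747 ± 149 FPKM, and CIT2 661 ± 10.3 and 2378 ± 143 FPKM (SD, n = 2 each). FPKM in the hybrid are scaled to the reads on both genomes, and those in IMX1939 to the reads on 1 genome, so no test was made across these tables. Adding both copies of a gene in HTS020 would still leave ICL1, PCK1 and CIT2 below their IMX1939 levels.

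Genes around the pathway were described from lists chosen by function, with counts from the fit over 14 libraries. Among activators of gluconeogenic genes (CAT8, SIP4, ADR1, RDS2 and ERT1), 4 of 5 rose and 0 fell in IMX1939 on maltotriose against glucose (39.8% of all genes called) and 2 of 5 rose on maltose against glucose (16.2%). In HTS020 on maltotriose against glucose, 4 of 5 S. eubayanus models rose, and 5 of 6 S. cerevisiae models rose while 1 fell, CAT8 being divided into 2 models there. Of all S. eubayanus genes tested, 1688 of 5400 rose and 2223 fell (72.4% called). Of all S. cerevisiae genes tested, 1756 of 5590 rose and 2141 fell (69.7% called). CAT8, a zinc cluster activator that in S. cerevisiae switches on many of these genes, rose by 4.50 ± 0.46 (adjusted p = 0.000212) in IMX1939 (limma), by 3.13 ± 0.46 (adjusted p = 0.00336) in IMX1765 and by 2.96 ± 0.19 (adjusted p = 0.000212) from its S. eubayanus copy in HTS020, each on maltose against glucose. SIP4, a related activator, rose by 6.20 ± 0.21 (adjusted p = 1.71e-06) from its S. eubayanus copy in HTS020 on maltotriose against glucose.

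Acetyl-carnitine shuttle genes (CAT2, YAT1, YAT2 and CRC1) carry acetyl units between compartments. In IMX1939 on maltotriose against glucose, 5 of 5 models rose (39.8% of all genes called), since YAT1 is given as 2 models in the CDFM21L.1 annotation. CAT2, a carnitine acetyltransferase, rose by 6.28 ± 0.64 (adjusted p = 0.000262) (limma). On maltose against glucose 3 of 5 rose in IMX1939 (16.2%) and 1 of 5 in IMX1765 (9.34%), and between maltotriose and maltose 1 of 5 rose in IMX1939 (1.48%), a model of YAT1 at 4.05 ± 0.72 (adjusted p = 0.0274). In HTS020 on maltotriose against glucose, 4 of 4 S. cerevisiae models rose (69.7% of all genes called), and of the S. eubayanus models 3 of 5 rose and 1 fell (72.4%). YAT1 rose by 5.96 ± 0.22 (adjusted p = 2.18e-06) from its S. cerevisiae copy.

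Isozymes and neighbouring reactions (13 genes) moved in both directions. In IMX1939 on maltotriose against glucose 10 of 13 rose and 3 fell, where 39.8% of all genes were called. AGX1, which makes glycine from glyoxylate and alanine, rose by 7.39 ± 0.68 (adjusted p = 0.000157) and ACS1, an acetyl-CoA synthetase, by 7.10 ± 0.82 (adjusted p = 0.000404) (limma). Those that fell were DAL7, the malate synthase paralog of allantoin breakdown, with -3.21 ± 0.50 (adjusted p = 0.0015), MAE1, the mitochondrial malic enzyme, with -1.37 ± 0.28 (adjusted p = 0.00496), and PYC2, a pyruvate carboxylase, with -0.94 ± 0.20 (adjusted p = 0.00571). DAL7 thus moved opposite to MLS1. In HTS020 on the same contrast, 7 of 13 rose and 5 fell among the S. eubayanus copies (72.4% of all genes called) and 7 rose and 4 fell among the S. cerevisiae copies (69.7%), with DAL7, MAE1 and PYC2 falling in both subgenomes. On maltose against glucose 7 of 13 rose and 2 fell in IMX1939 (16.2%), and 6 rose and 2 fell in IMX1765 (9.34%), AGX1 being the largest rise in both with 5.97 ± 0.68 (adjusted p = 0.000359) in IMX1939 and 3.97 ± 0.68 (adjusted p = 0.00633) in IMX1765.

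The GID ubiquitin ligase (9 genes) marks gluconeogenic enzymes for breakdown when glucose returns. On maltotriose against glucose 7 of 9 rose in IMX1939 (39.8% of all genes called), and 8 of 9 S. eubayanus (72.4%) and 9 of 9 S. cerevisiae copies (69.7%) in HTS020. Those shares count both directions, and 1688 of 5400 S. eubayanus and 1756 of 5590 S. cerevisiae genes rose there. Their median log2 change was 1.19 in IMX1939, against 7.47 for the 9 pathway members. On maltose against glucose 1 of 9 rose in IMX1939 (16.2%). Retrograde signalling genes (RTG1, RTG2, RTG3 and MKS1) control CIT2 in S. cerevisiae when mitochondria fail. On maltotriose against glucose limma called 0 of 4 in IMX1939 (39.8% of all genes). Unadjusted p was under 0.05 there for 1 of them and for 2715 of all 5404 genes. In HTS020 0 of 4 were called per subgenome (72.4% of all S. eubayanus and 69.7% of all S. cerevisiae genes). Unadjusted p was under 0.05 there for 0 S. eubayanus and 0 S. cerevisiae copies, against 4037 of 5400 and 4030 of 5590 genes.

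Over the 13 S. eubayanus libraries, the log2(FPKM + 1) values of the members correlated with each other at a Pearson r between 0.882 and 0.998, a description over libraries that share their sugar groups. The most similar gene was sought outside the members only, and some members were closer to each other, such as ICL1 and IDP2 at 0.998. Among genes outside the members, ICL1 was most like ADH2, the alcohol dehydrogenase that in S. cerevisiae oxidizes ethanol (r = 0.995). PCK1 and SFC1 were there most like a YAT1 model (0.993 and 0.992), and IDP2 most like ACS1 (0.994). Among the same genes MLS1 was most like SIP4 (0.985), MDH2 like CRC1 (0.988), CIT2 like ECM27 (0.984) and FBP1 like YGR067C (0.998). For ICL2 it was PDH1 (0.992), which in S. cerevisiae is assigned to the same methylcitrate route.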

How the data were processed

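Polyadenylated RNA of 20 shake-flask cultures was sequenced. Reads were mapped with STAR 2.5.3a and counted per gene with featureCounts of Subread 1.6.3 per the labels, or with htseq-count per the methods, where reads of ambiguous position were also dropped. The authors deposited FPKM values made with edgeR, on genes of CDFM21L.1 and, for the hybrid, also of CBC-1. A kit that does not mark strand was used, so overlapping genes on opposite strands cannot be told apart. Within each library all values (100%) were whole multiples of 1 read to within 0.1 read. Tables of the authors' own comparisons were not used here.

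Groups were compared with limma 3.58.1 in R 4.3.3 (lmFit, eBayes with trend, two-sided) on log2(FPKM + 1), over genes whose mean reached 1 FPKM, with Benjamini-Hochberg adjustment over all genes tested and a threshold of 0.05. Strains of S. eubayanus (14 libraries) and the hybrid (6) were fitted separately. Intervals of read counts are exact Poisson (SciPy 1.17.1) and cover counting error only. P-values measure the spread between 2 cultures per group. The procedure was tested on simulated data. Alternatives were a pseudocount of 0.1, no filter or one at 5 FPKM (10 FPKM for gene pairs), rescaling, centring, a replicate block, only the compared groups, voom, the IMX1765 maltotriose group left out, and each culture left out. The 13-library fit, without the first maltotriose library of IMX1765, was added after seeing the data. The members and lists were chosen with earlier results of these data known. Named were all members, and ScMAL13, SGA1 and SeMALT1 as label checks. Also named were at most 3 listed neighbours per comparison and direction with the largest changes past the threshold. For each member, the most correlated gene outside the members was named too. Models that share a gene name were kept apart. The share of all genes whose cultures separate between groups without overlap was not counted.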

Additional observations from a re-analysis of the deposited data

Results flagged for a closer look

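In HTS020 the balance between the 2 copies of a gene differed between sugars for some members, by limma on log2(FPKM + 1) of the S. eubayanus copy minus that of its S. cerevisiae partner within each library. Between maltotriose and glucose, the ratio shifted towards the S. eubayanus copy by 2.11 for ICL1, 1.44 for FBP1, 0.90 for MLS1 and 0.80 for CIT2. On the same contrast it shifted towards the S. cerevisiae copy for MDH2, with -1.68, and for PCK1, with -0.90. The PCK1 shift depends on the pseudocount, since without it the maltotriose ratios lay between those of the glucose cultures. These 6 of 9 calls are near the 58.3% of all gene pairs called there. Between maltose and glucose, the shift was 1.94 for ICL1 and 0.58 for IDP2 towards the S. eubayanus copy, and -0.75 for ICL2 towards the S. cerevisiae copy, where 2.49% of all pairs were called. These 3 calls became 1 with a pseudocount of 0.1, with the replicate number as a block, and whichever of the 4 cultures compared was left out. Groups of 2 are too small for a test of a single culture against the rest of its group.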

How the results depend on the processing

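No member that passed the threshold changed direction under any alternative. The numbers are members called of 9. Beyond the main fits, the share of all genes called was counted only for the S. eubayanus strains. It was counted with voom, with the replicate block, without the IMX1765 maltotriose group and with 13 libraries. The other counts given here have no such share to be set against. With the compared groups only in the fit, the count was 9 in place of 3 for IMX1765 on maltose against glucose, 0 in place of 7 on maltotriose against glucose, 7 in place of 3 for IMX1939 on maltotriose against maltose, 4 in place of 0 for IMX1765 against CDFM21L.1, and 1 in place of 0 for the maltose response of IMX1939 minus that of IMX1765. With voom on the recovered reads it was 5 in place of 3 for IMX1765 on maltose against glucose (15% of all genes called, 9.34% in the main fit). It was also 8 in place of 3 for IMX1939 on maltotriose against maltose (7.33%, 1.48% in the main fit). With the IMX1765 maltotriose group left out of the fit, these 2 counts were 8 (17.9% of all genes called) and 9 (13.4%). In that fit the count of IMX1939 against IMX1765 on glucose was 2 in place of 0 (5.66%). That of the maltose response was 1 in place of 0 (0.37%). For the ratio change between maltose and glucose in HTS020, a pseudocount of 0.1 gave 1 in place of 3. The labels give cultures with the same number nothing in common but that number. The deviations from group means of same-numbered cultures correlated between -0.46 and 0.70 over the group pairs. Between the sugars of IMX1939 these correlations were 0.57, 0.59 and 0.70. Whether same-numbered cultures share a batch was not tested, and the main fit has no block. With the replicate number as a block, the count was 5 in place of 3 for IMX1939 on maltotriose against maltose (4.07% of all genes called). It was 1 in place of 3 for the ratio change between maltose and glucose, and no other count moved by over 1.5 times.

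Leaving out 1 culture at a time, including the library of 318922 reads, the counts lay between 1 and 8 for IMX1765 on maltose against glucose, 0 and 9 on maltotriose against glucose and 0 and 7 on maltotriose against maltose. They lay between 3 and 9 for IMX1939 on maltose against glucose and 0 and 9 on maltotriose against maltose. For IMX1939 against IMX1765 they lay between 0 and 2 on glucose and 0 and 9 on maltotriose, and for the response to a sugar between 0 and 1 for maltose and 0 and 9 for maltotriose. In HTS020 they lay between 4 and 8 for S. eubayanus copies on maltose against glucose and were 1 throughout for the ratio change between maltose and glucose. Over all genes, IMX1939 on maltotriose against maltose gave 80 calls, against 396 by voom, 220 with the block and 729 without the library of 318922 reads, and IMX1765 on maltotriose against glucose gave 334, 928, 479 and 1554. The cause of these differences was not tested. Members with few reads on glucose, such as SFC1 and PCK1, limit the precision of their folds.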
